A study of Mus musculus with 4 samples.

Results

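The spots described here are the few places in cardiomyocyte-rich tissue, outside the infarct by the measure given next, where *Myh11* was captured at least 2 times. *Myh11* encodes the myosin heavy chain of smooth muscle. The spots come from Visium slides, on which each spot captures mRNA from a small region of a tissue section and each captured molecule counts as 1 UMI. Cardiomyocyte share was taken as the UMIs of 12 cardiomyocyte genes over all UMIs that are not mitochondrially encoded. Spots under tissue with at least 500 UMIs were used, and tissue outside the infarct was defined as spots whose share was at least 0.5 times the 90th percentile of their section. Of 5909 spots with enough UMIs, 3188 lay above that limit, and 23 of these held 2 or more *Myh11* UMIs. They are called Myh11-rich spots below, and are compared with the 3049 spots of the same tissue that held 0 *Myh11* UMIs (Myh11-free spots), with 116 spots of 1 UMI standing between. Myh11-rich spots numbered 7 in the control, 6 at 3 dpi, 5 at 5 dpi in the section labelled female and 5 at 5 dpi in the section labelled male. The markers fit the label only in part: *Acta2* was found in 22 of the 23 spots and *Tagln* in 11. Myh11-free spots also held *Acta2*, with 1050, 947, 639 and 1044 UMIs over 1118, 817, 417 and 697 spots in the same order of sections. Its presence alone therefore separates little. As described below, 3 of 7 tested genes of arterial endothelium were higher in Myh11-rich spots while venous genes were too sparse to judge. Every value below rests on these 23 small regions.

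The hearts came from mice carrying the Collagen1a1-GFP reporter, in which a collagen promoter marks fibroblasts, at 8 to 12 weeks of age. One heart was uninjured (control), and 3 had a myocardial infarction made by tying the left anterior descending coronary artery, taken at 3 days (1 heart) or 5 days (2 hearts) after infarction (dpi). Each heart gave 1 fresh frozen section of 10 µm, so control and 3 dpi have no replicate and time points are described without a test. The tests below pair the classes within a section, over 4 hearts of different condition. They estimate spread with information shared between genes, so p-values and standard errors (SE) can understate how much a single gene varied between hearts. *Nppa*, described below, was higher in 2 sections and lower in 2 but had an SE of only 0.12 on the log2 scale. The spots were chosen by their measured *Myh11* UMIs and the UMIs of the cardiomyocyte genes. Sets of 4 values follow the order control, 3 dpi, 5 dpi labelled female, 5 dpi labelled male. The sex labels of the 5-dpi sections did not match their counts: 4 Y-linked genes held 718 UMIs in the section labelled female and 1 UMI in the section labelled male, against 0 in the control and 0 at 3 dpi. The control and the 3-dpi section were labelled female. No comparison below uses sex. The kept spots held between 6370134 and 11269552 UMIs per section.

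Smooth muscle cells wrap arteries and arterioles and set vessel diameter by contraction. They contract when myosin light chain kinase phosphorylates the regulatory light chain of myosin, which then pulls on filaments of alpha smooth muscle actin that are steadied by transgelin, calponin, caldesmon and tropomyosin. Arteries also have an inner endothelium joined by its own connexins, sheets of elastin laid down by the muscle cells, and an outer adventitia of fibroblasts. Notch3 in the muscle cells receives signals from the neighbouring endothelium, and serum response factor with myocardin switches on the contractile genes through a sequence called the CArG box. Pericytes of capillaries share some of these genes but hold little *Myh11*.

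*Myh11* chose the spots, so its level is a description. Myh11-rich spots held 19, 19, 15 and 15 *Myh11* UMIs, which was 32.2%, 47.5%, 34.9% and 35.7% of all *Myh11* UMIs above the limit. The single highest spot of each section held 7, 5, 6 and 6. Just inside the limit of 2 lay 15 of the 23 spots with exactly 2 UMIs, and just outside it lay 40, 21, 28 and 27 spots with 1 UMI. Myh11-rich spots made up 0.601%, 0.711%, 1.11% and 0.686% of the spots above the limit, with exact binomial intervals (95%) of 0.242 to 1.23, 0.261 to 1.54, 0.362 to 2.57 and 0.223 to 1.59. The 4 intervals overlap, and like all intervals here they cover counting error only. Finding 2 UMIs is easier in a deep spot: median UMIs without mitochondrial genes were 4265, 5054.5, 4617 and 5175 in Myh11-rich spots and 2936, 3546, 3947 and 4265 in Myh11-free spots. With every spot thinned to 1219 such UMIs, and 63, 84, 7 and 7 shallower spots left out, 3, 1, 1 and 2 spots kept 2 or more *Myh11* UMIs (0.272%, 0.132%, 0.226% and 0.277%), at or below the level of 3 spots in each section, so no order between sections can be read from these shares.

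The spots lay scattered. They formed 20 separate patches, the largest of 2 neighbouring spots, and 8 of the 23 lay on the outermost spots of the tissue or 1 step in. Their median distance from the tissue edge was 2, 4.5, 2 and 1 steps, against 5, 5, 4 and 2 steps for Myh11-free spots. At 3 dpi 2 of the 6 spots lay within 2 steps of a patch of 10 or more spots below the limit, and none did at 5 dpi. Cardiomyocyte genes, also used by the rule, made up 9.07%, 7.30%, 7.20% and 6.36% of their UMIs, against 10.2%, 8.38%, 7.43% and 7.74% in Myh11-free spots. Mitochondrial genes took 36.3%, 29.5%, 39.8% and 21.1% of UMIs, against 40.4%, 34.6%, 37.8% and 26.2%.

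The 20 genes of the contractile list, *Myh11* not among them, show how unlike each other the 23 spots were. Levels are given as CPM, in which 1 UMI among the 30755 non-mitochondrial UMIs of the control's Myh11-rich spots is 32.5 CPM. In the control the 7 spots ranged from 503 to 10566 CPM with a median of 3283, against a median of 856 and a 95th percentile of 2201 in Myh11-free spots. At 3 dpi the 6 spots ranged from 1693 to 18191 CPM around a median of 5544, against a 95th percentile of 2685. The 5 spots of the 5-dpi section labelled female ranged from 1491 to 13072 CPM around 5078, and the 5 of the section labelled male from 580 to 12947 CPM around 3998, with 95th percentiles of 2901 and 2399 in Myh11-free spots. Of the 23 spots 15 lay above the 95th percentile of their section's Myh11-free spots and 8 lay below it. Single Myh11-free spots reached 10140, 5814, 5031 and 5795 CPM, so some of the 15 also lay within the full Myh11-free range. One spot carried much of its section's signal: the highest spot held 27.2%, 38.4%, 65.0% and 37.8% of the contractile UMIs of all Myh11-rich spots of the section. In the section labelled female that spot held 102 of 157 contractile UMIs, 11 of 13 *Tagln* UMIs and 29 of 36 *Myl9* UMIs. *Myl9* was found in 20 of the 23 spots, *Mgp* in all 23 and *Eln* in 15.

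**Figure D1:**
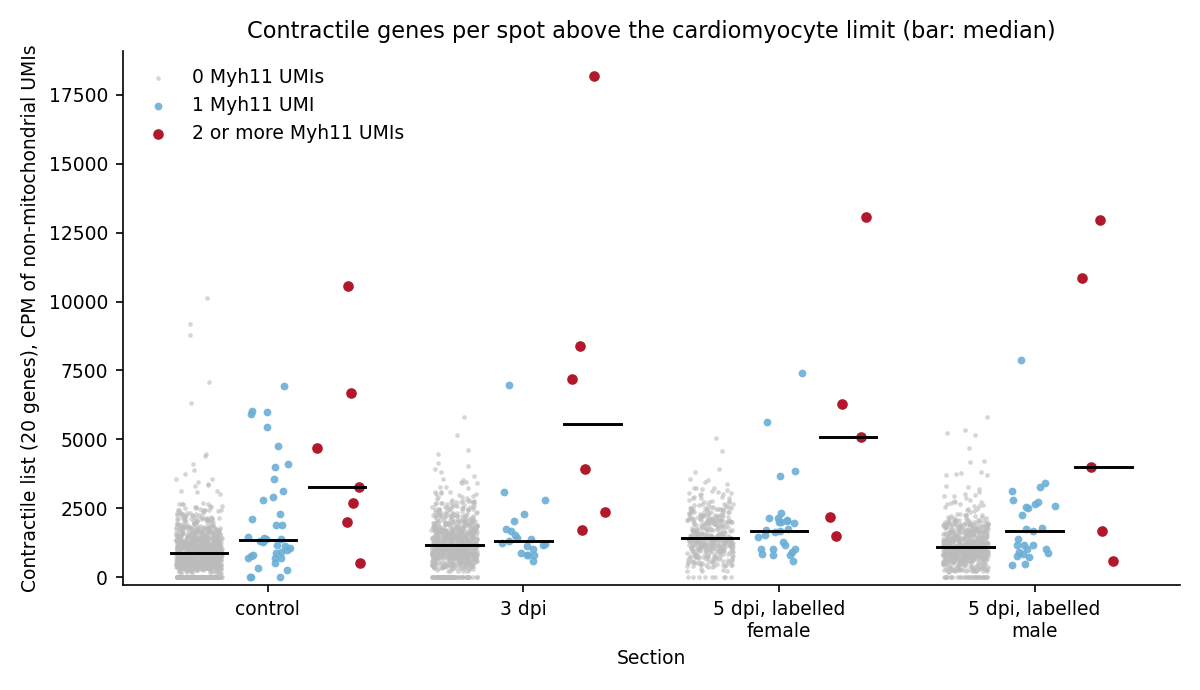
Contractile list (20 genes without *Myh11*) per spot, as CPM of non-mitochondrial UMIs on the vertical axis, for spots above the cardiomyocyte limit in each section, split by *Myh11* UMIs (0 grey, 1 blue, 2 or more red). Each point is 1 spot and the bar is the median: red points spread from the level of ordinary muscle to 18191 CPM, and in each section the red median lies above the other medians.

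The step from 0 to 1 to 2 or more *Myh11* UMIs was gradual. Contractile genes reached 952, 1293, 1574 and 1218 CPM over Myh11-free spots, 1988, 1498, 2110 and 1858 CPM over spots with 1 UMI, 3305, 3711, 3684 and 2341 CPM over spots with exactly 2, and 10566, 9798, 9018 and 11872 CPM over the 1, 3, 2 and 2 spots with 3 or more. Each class lay above the one below it in all 4 sections.

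Summed over Myh11-rich spots, contractile genes reached 4064, 6287, 6373 and 5460 CPM. The exact Poisson intervals (95%) were 3383 to 4843, 5413 to 7261, 5415 to 7451 and 4637 to 6388. These levels were 4.27, 4.86, 4.05 and 4.48 times those of Myh11-free spots of the same section. In sums over spots, fewer cells of a type and less RNA per cell cannot be told apart. Gene by gene, sums per class and section were compared with section as a block. Of 7086 genes tested, 38 passed the threshold (edgeR with its quasi-likelihood F test, p adjusted after Benjamini and Hochberg under 0.05), all of them higher in Myh11-rich spots, which is 0.536% of genes. Without section as a block 13 passed. Genes needed about 12 CPM in 4 sums to be tested. *Ccdc3*, *Gja5*, *Itih4* and *Nrip2* reached this only in Myh11-rich spots, so they could enter only as higher. In all, 962 of the genes tested reached it in fewer than 4 Myh11-free sums and so also needed Myh11-rich sums. Of the genes that passed, *Cd55*, *Stmn2* and *Tagln* were among these as well. Without the filter *Ccdc3*, *Gja5*, *Itih4*, *Cd55*, *Stmn2* and *Tagln* still passed and *Nrip2* did not (adjusted p = 0.0596). No gene passed as lower, and 381 genes had an unadjusted p under 0.05 in either direction. The 4 sums of Myh11-rich spots held 24636 to 30755 UMIs each, so that 1 UMI was worth 32.5 to 40.6 CPM. On simulated data of this size 98% of 8-fold and 69.4% of 4-fold increases were found, but 32.7% of 2-fold increases and 4.35% of 2-fold decreases, so lower genes were hardly detectable at this depth. The scaling matters here: with TMM factors taken over every filtered gene, 25 genes passed as higher and 267 as lower, the median of all genes moving by -0.56 on the log2 scale, but on simulated data 62% of the calls made with those factors were false. DESeq2 called 22 genes higher and 1 lower (*Uqcrb*, a subunit of respiratory complex III, log2 fold change -0.67, adjusted p = 0.0479), the median of all genes moving by -0.23.

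Of the 20 contractile genes 16 were tested and 12 passed, all higher. The median log2 fold change was 2.36 over the 16, against 0.10 over all genes tested. Among the 12 was *Nrip2*, which could enter only as higher and did not pass without the filter. *Myl9*, the regulatory light chain of smooth muscle myosin, had 33, 33, 36 and 39 UMIs in Myh11-rich spots, or 1073, 1121, 1461 and 1365 CPM, against 67.0, 109, 173 and 118 CPM in Myh11-free spots. The 4 high values are all above the 4 low ones, and the log2 fold change was 3.53 ± 0.19 (SE, n = 4 sections, adjusted p = 1.88e-69). *Acta2*, alpha smooth muscle actin and a marker of the spots, had 1398, 1597, 1421 and 1505 CPM against 290, 303, 361 and 321 CPM. Its means were 1480 ± 90.5 and 319 ± 31.2 CPM (SD, n = 4), and its log2 fold change was 2.27 ± 0.16 (SE, adjusted p = 1.12e-41). *Tagln*, transgelin, which binds and bundles actin, was less abundant: 2, 7, 13 and 7 UMIs, or 65.0, 238, 528 and 245 CPM, against 8.82, 26.3, 53.7 and 27.3 CPM. *Tagln* was higher in each section, by 3.24 ± 0.45 on the log2 scale (adjusted p = 4.02e-10, and 3.09e-10 without the filter), although its control value rests on 2 UMIs.

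*Tpm2*, a tropomyosin that lies along the actin filament, had 260, 816, 649 and 385 CPM against 25.1, 111, 101 and 76.8 CPM, and its log2 fold change was 2.82 ± 0.29 (adjusted p = 1.05e-19). *Flna*, the actin crosslinker filamin A, had 325, 680, 649 and 525 CPM against 74.5, 229, 286 and 192 CPM, a log2 fold change of 1.57 ± 0.24 (adjusted p = 4.88e-08). *Csrp1*, a LIM protein of smooth muscle, was 1.80 ± 0.37 higher on the same scale (adjusted p = 0.000433). The proteins that control the phosphorylation of myosin were among those that passed. *Mylk*, the light chain kinase, had 3, 3, 6 and 2 UMIs and a log2 fold change of 2.82 ± 0.61, and *Ppp1r14a*, an inhibitor of myosin phosphatase, had 1, 8, 1 and 4 UMIs and 2.40 ± 0.59. The remaining genes that passed were *Cald1* (caldesmon, 1.65 ± 0.44), *Sncg* (gamma-synuclein, 2.93 ± 0.66), *Nrip2* (3.95 ± 0.88) and *Mustn1* (3.52 ± 0.54). All 12 were higher in 4 of 4 sections except *Mustn1*, with 4, 8, 0 and 8 UMIs.

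Among the 4 contractile genes that were tested and did not pass, *Cnn1* (calponin) had 4, 2, 1 and 0 UMIs and a log2 fold change of 2.32 ± 0.81 (adjusted p = 0.401). It passed with the cardiomyocyte limit at 0.4 (2.43, adjusted p = 0.0274) and at 0.6 (3.11, adjusted p = 0.0377) and with 1 or more *Myh11* UMIs (1.63, adjusted p = 0.0355). *Smtn* (smoothelin) was at 0.22 ± 0.41 and *Synpo2* at 0.90 ± 0.59, both genes that heart muscle spots without *Myh11* also held at 32.5 to 139 CPM. *Pcp4l1* was at -0.41 ± 0.51. *Lmod1*, *Actg2*, *Itga8* and *Map3k7cl* were too sparse to test, the last with no UMI in any Myh11-rich spot. Leaving out the 5-dpi section labelled female brought the contractile genes that passed from 12 to 7, and leaving out the largest patch of each section also left 7. In the section labelled male and at 3 dpi every patch was 1 spot, and there a spot with the most *Myh11* UMIs was left out instead.

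The promoter of *Myl9*, the gene with the smallest adjusted p, is shown because it was the only one of the 16 contractile genes with a promoter window that held a CArG box there. Promoter windows of RefSeq (GRCm38.p6) were searched over the 250 bases before the start, on both strands. The box searched for was 10 bases long: CC, then only A or T, then GG. Boxes with a G or C in the middle were not counted. The window of *Myl9*, chr2:156775214-156775463 on the + strand, holds it 161 to 152 bases before the start, in capitals:
Myl9: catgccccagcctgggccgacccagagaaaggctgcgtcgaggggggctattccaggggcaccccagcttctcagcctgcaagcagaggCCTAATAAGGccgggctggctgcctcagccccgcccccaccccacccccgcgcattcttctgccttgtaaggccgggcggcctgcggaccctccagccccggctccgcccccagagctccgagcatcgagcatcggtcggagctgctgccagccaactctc
Of the 16 contractile genes with a window, 1 held such a box, against 1.62% of all 27025 genes with a window. The match describes these letters in this window, and the files of the study hold no coordinates to set beside it.

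**Figure D2:**
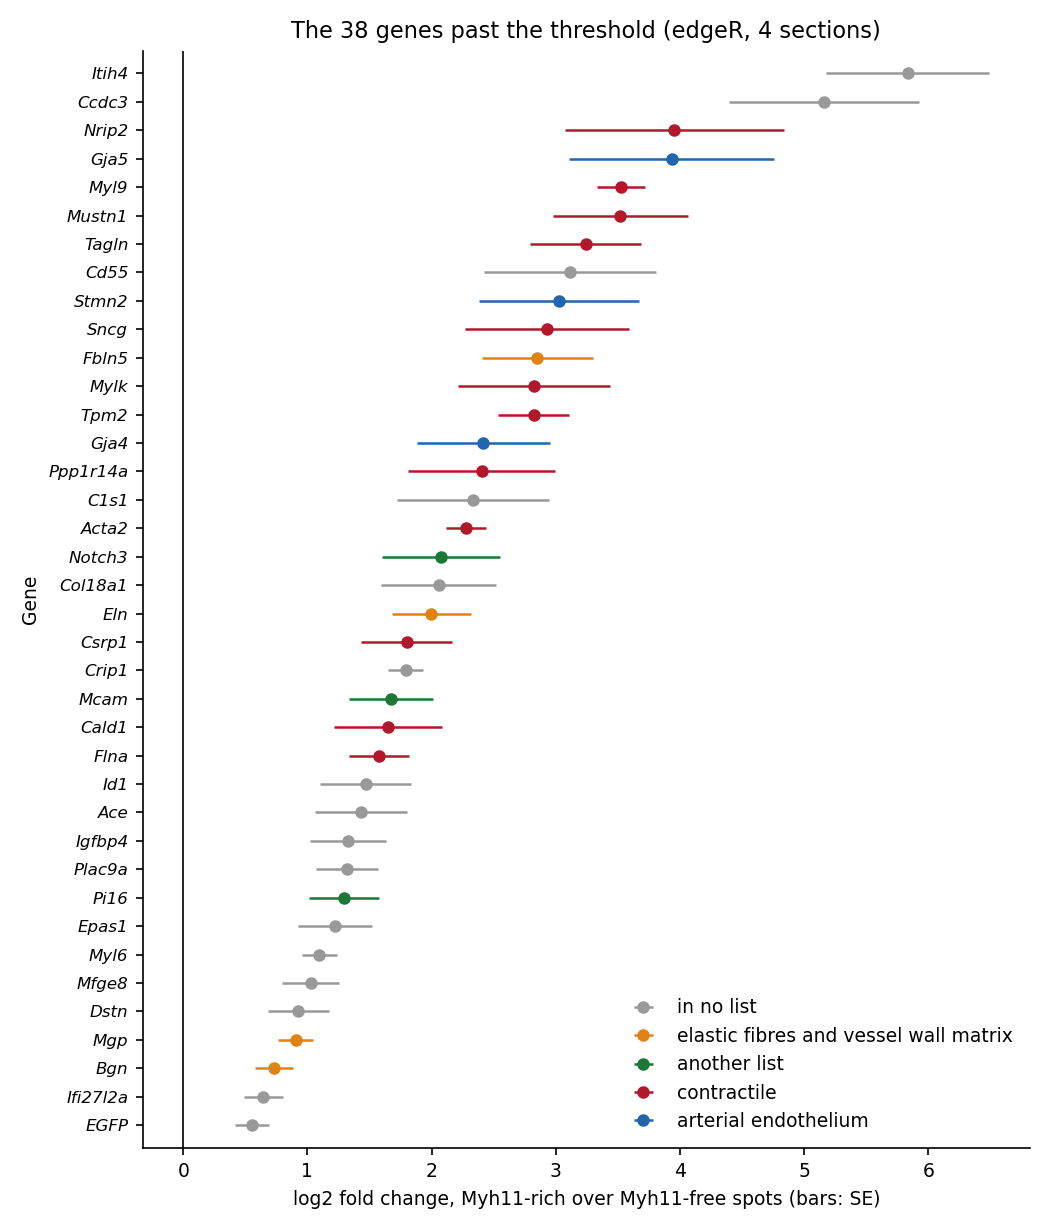
The 38 genes that passed, ordered by log2 fold change of Myh11-rich over Myh11-free spots (horizontal axis, points with SE from edgeR over 4 sections), coloured by gene list. Red contractile, blue arterial endothelial and orange matrix genes fill much of the upper part, and all 38 points lie to the right of 0, the lowest being *EGFP* at 0.55.

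Of 12 arterial endothelial genes 7 were tested and 3 passed, with a median log2 fold change of 2.42 over the 7. *Gja5* encodes connexin 40 of arterial endothelium, which the conduction system and atria also hold. It had 2, 1, 3 and 1 UMIs in 5 of the 23 Myh11-rich spots against 1.60 to 9.05 CPM in Myh11-free spots, and a log2 fold change of 3.93 ± 0.83 (adjusted p = 0.000765, and 0.0226 without the filter through which it entered only as higher). *Gja4*, connexin 37, had 5, 5, 4 and 3 UMIs against 16.8, 36.5, 40.7 and 24.9 CPM, a log2 fold change of 2.42 ± 0.54 (adjusted p = 0.0022). *Stmn2*, a microtubule regulator, had 4, 3, 5 and 1 UMIs and a log2 fold change of 3.03 ± 0.64 (adjusted p = 0.000983, and 0.00211 without the filter). Genes that did not pass were *Dll4*, a Notch ligand, at 1.87 ± 0.70 and higher in 4 of 4 sections, *Sema3g* at 2.80 ± 0.94 and *Cxcl12* at -0.26 ± 0.55. The summed list was 3.11, 3.23, 3.26 and 2.52 times its level in Myh11-free spots, and 20 of the 23 spots held at least 1 of its UMIs. Myh11-free spots also held 683, 624, 462 and 543 of its UMIs, over 1118, 817, 417 and 697 spots. The share of these with at least 1 was not counted.

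None of the 11 capillary genes tested passed in either direction, and their median was -0.44. *Fabp4*, a fatty acid binding protein of capillaries, had 1821, 917, 893 and 2170 CPM against 2058, 1178, 1528 and 2762 CPM, lower in each section with a log2 fold change of -0.34 ± 0.15 (adjusted p = 0.868). It passed as lower where spots with 3 or more *Myh11* UMIs were compared (-1.29, adjusted p = 0.0149). *Aqp1*, a water channel, was at -1.49 ± 0.53 (adjusted p = 0.414), lower in each section. The summed capillary list was 0.86, 0.77, 0.84 and 0.78 times that of Myh11-free spots, but a decrease of this size was hardly detectable gene by gene. *Cdh5* and *Pecam1*, which all endothelium holds, were at 0.65 ± 0.36 and 0.58 ± 0.39 and did not pass. Of 8 venous genes 5 were tested, none passed and their median was -0.94, on 18 UMIs in all Myh11-rich spots. The smooth muscle of veins carries the same contractile genes, and these counts are too few to say whether venous wall was among the spots. Of 4 lymphatic genes tested none passed. *Ccl21a*, a chemokine of lymphatic endothelium, had 6, 6, 1 and 0 UMIs, and passed as higher with the cardiomyocyte limit at 0.4 (1.82, adjusted p = 0.0125).

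Mural cells of small vessels are marked by the pericyte list, of which 11 of 12 genes were tested and 1 passed, with a median of 0.55. The gene was *Mcam*, an adhesion molecule of pericytes, smooth muscle and endothelium, at 97.5, 408, 365 and 315 CPM against 43.3, 87.4, 119 and 138 CPM, a log2 fold change of 1.67 ± 0.34 (adjusted p = 0.000335). *Rgs5*, the most abundant pericyte gene, had 358, 374, 365 and 420 CPM against 314, 235, 311 and 219 CPM and did not pass (0.55 ± 0.25, adjusted p = 0.915). *Kcnj8* and *Abcc9*, subunits of the pericyte potassium channel, were at 0.07 ± 0.64 and -0.82 ± 0.66. *Pdgfrb* was at 0.70 ± 0.47. The summed pericyte list was 1.45, 1.61, 1.25 and 1.35 times its level in Myh11-free spots, a smaller ratio in each section than that of the contractile list. Relative to the median of all genes the list's median was 0.44, 0.45 with all filtered genes used for scaling and 0.18 in DESeq2. Scaling with all filtered genes moved the list's median to -0.01 together with all genes.

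*Notch3*, the Notch receptor of mural cells, passed at 65.0, 272, 325 and 70.0 CPM against 37.2, 50.9, 48.1 and 35.9 CPM, a log2 fold change of 2.07 ± 0.48 (adjusted p = 0.00328). It passed in 12 of 18 alternatives, with adjusted p up to 0.753, and not in DESeq2 (adjusted p = 0.0538). It was 1 of 8 tested genes of the list of serum response factor cofactors and Notch genes to do so. The Notch targets *Heyl* and *Hey1* were higher in each section without passing, at 1.83 ± 0.63 (adjusted p = 0.379) and 2.50 ± 0.82 (adjusted p = 0.299), and the ligand *Jag1* was at 2.03 ± 1.01. The transcription factors themselves were near the limit of detection: *Myocd* had 1 UMI, *Srf* 1 and *Mrtfb* 0 in all 23 spots. Of 20 channels, vasoactive receptors and cyclic GMP signalling genes of smooth muscle 10 were tested and none passed. *Gucy1a1*, a subunit of the receptor for nitric oxide, came nearest with 0, 4, 3 and 2 UMIs and 2.59 ± 0.74 (adjusted p = 0.0795). *Rgs4*, a regulator of G protein signalling, passed where spots with 3 or more *Myh11* UMIs were compared (3.72, adjusted p = 0.0406). *Ednra*, the receptor for endothelin, had 0 UMIs in every section, where 3 UMIs would be 97.5 to 122 CPM, against 15.4 to 30.1 CPM in Myh11-free spots, so that its absence was not detectable at this depth.

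**Figure D3:**
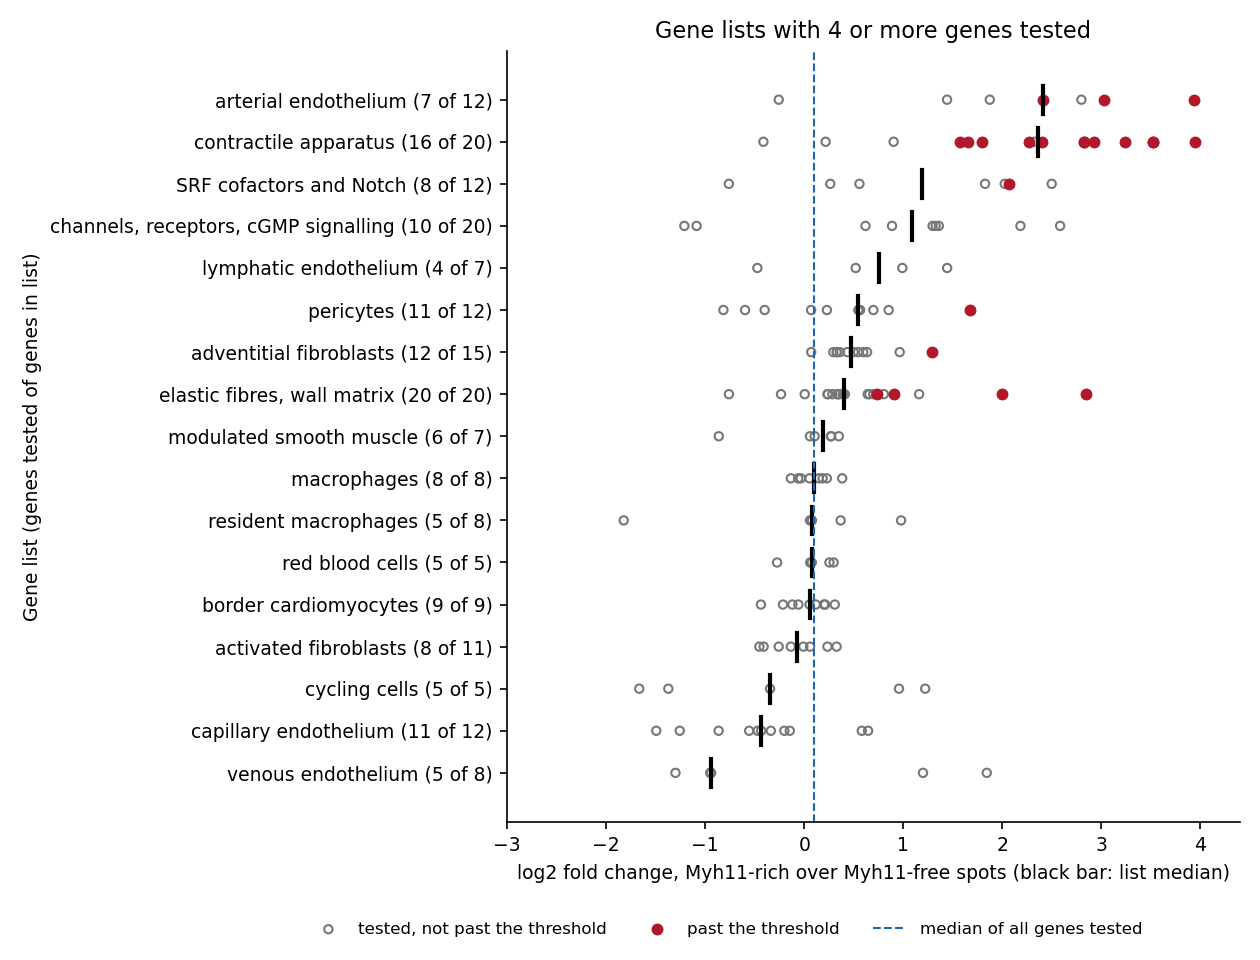
Log2 fold change of Myh11-rich over Myh11-free spots for each tested gene (points) of the 17 lists with 4 or more genes tested, with the list median (black bar) and the median of all genes tested (dashed line, 0.10). Filled red points passed the threshold, and 2 genes with 0 UMIs in Myh11-rich spots lie left of the axis. The arterial endothelial and contractile medians lie farthest right, at 2.42 and 2.36, and the capillary and venous medians farthest left.

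The matrix of the vessel wall was higher in part. All 20 genes of elastic fibres and wall matrix were tested and 4 passed, with a median of 0.40. *Eln*, elastin, had 4, 9, 11 and 16 UMIs, or 130, 306, 447 and 560 CPM, against 34.5, 91.3, 144 and 108 CPM, and its log2 fold change was 2.0 ± 0.32 (adjusted p = 1.77e-07). *Fbln5*, fibulin-5, which guides the assembly of elastic fibres, had 32.5, 238, 365 and 350 CPM against 16, 33.6, 44.7 and 43.9 CPM and a log2 fold change of 2.85 ± 0.45 (adjusted p = 1.13e-07). Both were higher in each section, with *Fbln5* resting on 1 UMI in the control. *Mgp*, matrix Gla protein, an inhibitor of calcification made by vascular smooth muscle, was the most abundant of the 4, at 1756, 2107, 2435 and 2485 CPM against 705, 1191, 2115 and 1150 CPM. Its log2 fold change was 0.91 ± 0.14 (adjusted p = 4.88e-08). *Bgn*, biglycan, was at 0.73 ± 0.15 (adjusted p = 0.000765). Among the 16 genes that did not pass, *Fbn1* was at 0.28 ± 0.25, *Fbln2* at 0.41 ± 0.25 and *Mfap5* at 0.33 ± 0.24. *Mfap4* was at 1.16 ± 0.33 (adjusted p = 0.0666), and it passed at both other cardiomyocyte limits, without either 5-dpi section and without spots near the border of the infarct, at 1.19 to 1.63. The basement membrane collagens *Col4a1* and *Col4a2* were at -0.23 ± 0.19 and 0.01 ± 0.21. The summed list was 2.0, 1.66, 0.976 and 1.51 times its level in Myh11-free spots, below 1 in the 5-dpi section labelled female. DESeq2 called *Eln* and *Fbln5* but not *Mgp* (adjusted p = 0.0838) or *Bgn*. With all filtered genes used for scaling the list's median moved to -0.16 with all genes, and relative to these it was 0.30 under both scalings.

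Of 12 adventitial fibroblast genes tested 1 passed, and all 12 fold changes were above 0, with a median of 0.47. With all filtered genes used for scaling that median moved to -0.09 with all genes, and relative to these it was 0.37 before and 0.36 after. *Pi16*, a marker of adventitial fibroblasts, had 293, 510, 244 and 420 CPM against 118, 149, 213 and 160 CPM, a log2 fold change of 1.29 ± 0.28 (adjusted p = 0.00148). It passed in 11 of 19 alternatives, and neither in DESeq2 (adjusted p = 0.166) nor with all filtered genes used for scaling (adjusted p = 0.106). *Gsn* and *Dcn* were higher in each section without passing, at 0.54 ± 0.16 (adjusted p = 0.102, and 0.0475 without the 5-dpi section labelled female) and 0.50 ± 0.19 (adjusted p = 0.515). *EGFP*, the reporter, had 1073, 1733, 2314 and 4165 CPM against 676, 1097, 2228 and 2661 CPM and a log2 fold change of 0.55 ± 0.14 (adjusted p = 0.013), and -0.01 with all filtered genes used for scaling, a move like that of the median of all genes, and it passed in 8 of 19 alternatives. Among genes of activated infarct fibroblasts none of 8 tested passed, with a median of -0.07. *Col1a1* was at -0.01 ± 0.19, *Col3a1* at 0.33 ± 0.16 and *Postn* at -0.45 ± 0.20. The summed list was 2.25, 1.06, 0.58 and 1.17 times its level in Myh11-free spots. *Col3a1* passed without the 5-dpi section labelled female (0.60, adjusted p = 0.0469) and without spots near the border (0.77, adjusted p = 0.000123), where *Fn1*, fibronectin, also passed (0.996, adjusted p = 0.00948). None of 6 tested genes of modulated smooth muscle passed, *Timp1* lying at -0.86 ± 0.31, *Spp1* at 0.06 ± 0.65 and *Lgals3* at 0.11 ± 0.50. Without the 5-dpi section labelled male *Timp1* passed as lower (-1.53, adjusted p = 0.0312).

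Of the 38 genes 16 were in none of the lists. The 2 with the highest fold changes were rare in muscle: *Itih4*, of the inter-alpha-trypsin inhibitor family, had 1, 7, 3 and 3 UMIs in Myh11-rich spots against 1.38 to 2.83 CPM elsewhere, and its log2 fold change was 5.83 ± 0.66 (adjusted p = 1.04e-15, and 4.43e-10 without the filter). *Ccdc3*, a secreted protein, had 3, 2, 2 and 2 UMIs against 2.15 to 2.26 CPM, a log2 fold change of 5.16 ± 0.76 (adjusted p = 1.94e-08, and 4.39e-05 without the filter). Both were higher in each section and passed in all 15 alternatives that tested them. *Cd55*, which shields cells from complement, had 8, 1, 1 and 1 UMIs and 3.11 ± 0.69 (adjusted p = 0.0022, and 0.00661 without the filter), so most of its UMIs came from the control.

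The other 13, with the reporter given above among them, had lower fold changes. *Crip1*, a small LIM protein, stood at 1398, 2413, 2435 and 2590 CPM against 387, 616, 882 and 807 CPM, a log2 fold change of 1.79 ± 0.14 (adjusted p = 1.81e-32). *Myl6*, the essential light chain that pairs with non-sarcomeric myosins, was at 1.10 ± 0.14 (adjusted p = 2.45e-11), and *Dstn*, which severs actin filaments, at 0.93 ± 0.25. *Ace*, the angiotensin converting enzyme of endothelium, was at 1.43 ± 0.37, *Epas1*, a hypoxia-inducible factor, at 1.22 ± 0.30, *Id1*, a target of bone morphogenetic proteins, at 1.47 ± 0.37, and *Col18a1*, a basement membrane collagen, at 2.06 ± 0.46. *Igfbp4* was at 1.33 ± 0.30 and *Mfge8*, lactadherin, at 1.02 ± 0.23. *Plac9a* (1.32 ± 0.25), *C1s1* (2.33 ± 0.61) and *Ifi27l2a* (0.65 ± 0.16) have close copies in the genome that may share reads, so these values are uncertain.

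Of the 38 genes 37 were higher in 4 of 4 sections, which held for 5.5% of all genes tested, while 8.28% were lower in 4 of 4. In each of the 4 fits that left out 1 section 13 genes passed: *Acta2*, *Ccdc3*, *Crip1*, *Eln*, *Fbln5*, *Flna*, *Itih4*, *Mgp*, *Mustn1*, *Myl6*, *Myl9*, *Tagln* and *Tpm2*. Over all alternatives that tested them 7 genes passed in fewer than 9: *Cald1* in 4 of 18, *Dstn* in 5 of 19, *Ace* in 7 of 18, *C1s1* and *Id1* in 8 of 18, and *Epas1* and *EGFP* in 8 of 19. Leaving out the 3-dpi section left 20 genes past the threshold and leaving out the control left 25. Without the largest patch of each section, or a spot with the most *Myh11* UMIs where all patches were 1 spot, 15 passed. Since Myh11-rich spots were deeper, each was also matched to 3 Myh11-free spots of its section with the nearest number of UMIs. That left 737 genes to test, of which 10 passed, among them all 4 contractile genes that could be tested, and *Myl9* was at 3.63 (adjusted p = 3.93e-12). With classes drawn again after thinning 19 passed, on only 3, 1, 1 and 2 Myh11-rich spots. Thinning set the classes there, while the counts tested were not thinned.

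Across the 4 sections the contractile list was lowest in the control in both classes, at 4064 CPM in Myh11-rich and 952 CPM in Myh11-free spots. *Tagln* had 65.0 CPM in the control (exact 95% interval 7.88 to 235) and 238, 528 and 245 CPM after infarction, while Myh11-free spots went from 8.82 to 26.3, 53.7 and 27.3 CPM. *Eln* had 130 CPM in the control and 306 to 560 CPM after infarction, and Myh11-free spots 34.5 and 91.3 to 144 CPM. *Acta2* had 1398 CPM in the control (exact 95% interval 1012 to 1883), an interval that holds the 1421 to 1597 CPM after infarction, and Myh11-free spots held 290 CPM in the control and 303 to 361 CPM after infarction. *Myl9* had 1073 CPM in the control and 1121 to 1461 CPM after infarction. The ratio of Myh11-rich to Myh11-free spots for the contractile list was 4.05 to 4.86 after infarction and 4.27 in the control. With 1 control heart and 1 heart at 3 dpi none of this was tested.

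Of the neighbouring spots only those with 0 *Myh11* UMIs were used, and contractile genes rose with *Myh11* UMIs (in the control 952 CPM at 0 and 1988 CPM at 1 UMI). The fall from Myh11-rich spots to their neighbours thus follows in part from the choice of spots. In Myh11-free spots 1 step away contractile genes stood at 1184, 1482, 1435 and 1541 CPM, with Poisson intervals of 1005 to 1385, 1287 to 1699, 1196 to 1707 and 1351 to 1750. At 5 or more steps the values were 915, 1274, 1682 and 1167 CPM. Spots next to Myh11-rich spots were thus higher than distant ones in 3 sections and lower in the section labelled female, and all lay far below the 4064 to 6373 CPM of the Myh11-rich spots. Summed per section, 30, 31, 23 and 24 Myh11-free spots 1 step away were compared with 1030, 729, 358 and 635 spots at least 3 steps from any Myh11-rich spot. Of 7229 genes tested 0 passed in edgeR (background 0%), 0 passed in DESeq2 and 285 had an unadjusted p under 0.05. Around the 1, 3, 2 and 2 spots with 3 or more *Myh11* UMIs 8 genes passed, on only 3, 15, 5 and 8 spots 1 step away. *Ccl21a*, the lymphatic chemokine, was higher next to them (2.82 on the log2 scale, adjusted p = 1.97e-12), while *Nppa* (-1.88), *Clu* (-1.01), *Postn* (-0.97) and 4 globin genes (the lowest at -1.08) were lower. Around all Myh11-rich spots 3 genes passed without the 5-dpi section labelled male. At this size 98% of 4-fold and 57.1% of 2-fold increases were found on simulated data. Among the contractile list 15 genes were tested, 8 were above 0 and the median was 0.22, against -0.01 over all genes.

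**Figure D4:**
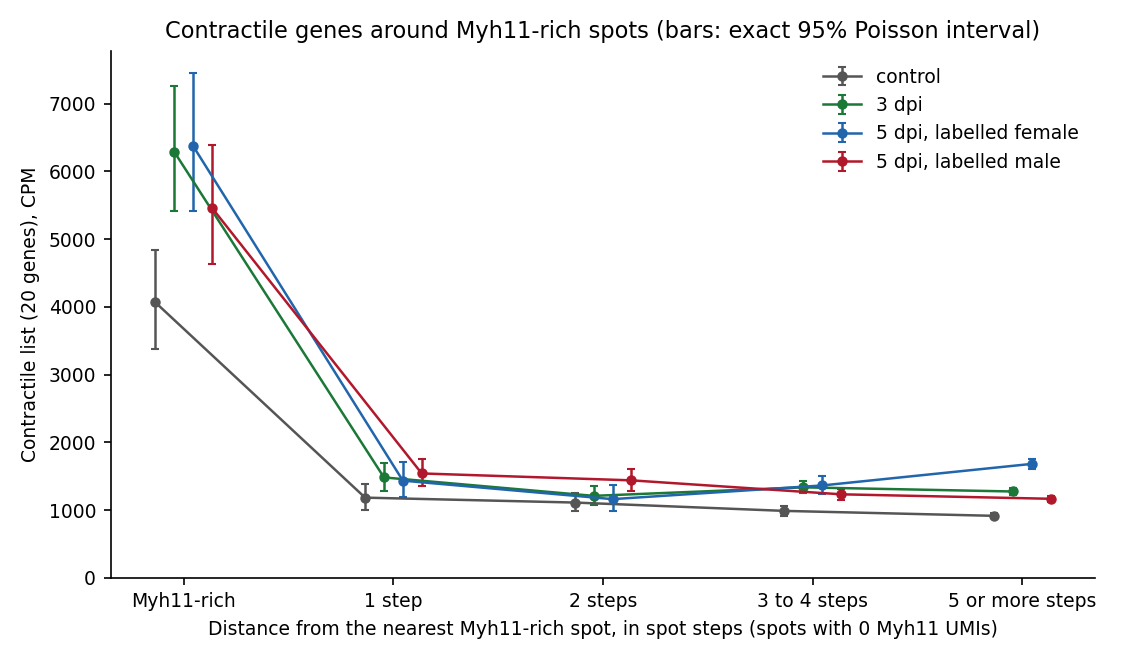
Contractile list (20 genes) in CPM on the vertical axis, summed over Myh11-rich spots and over Myh11-free spots at rising distance in spot steps, for each section, with exact 95% Poisson intervals. The Myh11-rich sums lie between 4064 and 6373 CPM, and from 1 step outwards every sum lies between 915 and 1682 CPM. Spots with 1 *Myh11* UMI were left out, so the fall follows in part from the choice of spots.

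The same comparison was made in spots below the cardiomyocyte limit, called inside the infarct by this measure only. Among these, 14, 35 and 25 spots of the 3 infarcted sections held 2 or more *Myh11* UMIs and 839, 940 and 597 held 0. There the contractile list was already 1.94, 2.81 and 3.36 times as high in Myh11-free spots as in those above the limit, and spots with 2 or more *Myh11* UMIs exceeded Myh11-free ones by 1.67, 1.93 and 1.47 times, against 4.86, 4.05 and 4.48 times outside. The difference was tested as an interaction over 9440 genes, of which 6 passed (0.0636%), all with the larger ratio outside. Without section as a block 0 passed, and with the cardiomyocyte limit at 0.6 times the percentile 12 passed. On simulated data of this size 52% of 8-fold and 20% of 4-fold differences were found, so other differences may lie below what could be detected. *Myl9* was 3.23 higher outside and 0.89 higher inside on the log2 scale, a difference of 2.34 ± 0.24 (SE, n = 3 sections, edgeR adjusted p = 4.89e-19). *Tagln* differed by 2.42 ± 0.42 (adjusted p = 1.79e-05), *Tpm2* by 1.93 ± 0.30 (adjusted p = 3.58e-07) and *Acta2* by 1.24 ± 0.22 (adjusted p = 5.89e-05).

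The levels of *Acta2*, which myofibroblasts also make, differed between the 2 kinds of tissue in both classes. In Myh11-free spots it had 303, 361 and 321 CPM above the limit and 690, 1489 and 1312 CPM below it, while in spots with 2 or more *Myh11* UMIs it had 1597, 1421 and 1505 CPM above and 1178, 3176 and 1985 CPM below. The last 2 of the 6 genes were *Fbln5*, at 2.12 ± 0.42 (adjusted p = 0.000531), and *Crip1*, at 1.08 ± 0.20 (adjusted p = 0.000198). Each of these passed in 7 of 13 alternatives, and neither in DESeq2 (adjusted p = 0.24 and 0.0716), which called the other 4. For all 6 the ratio was larger outside in 3 of 3 sections. Of the contractile list 4 of 19 tested genes passed and 16 were above 0, with a median of 1.07 against -0.14 over all genes. The median of the arterial endothelial list was 1.06 with none of 9 passing. With all filtered genes used for scaling 4 genes passed as larger outside and 371 as smaller, and on simulated data 88.8% of calls made that way were false.

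**Figure D5:**
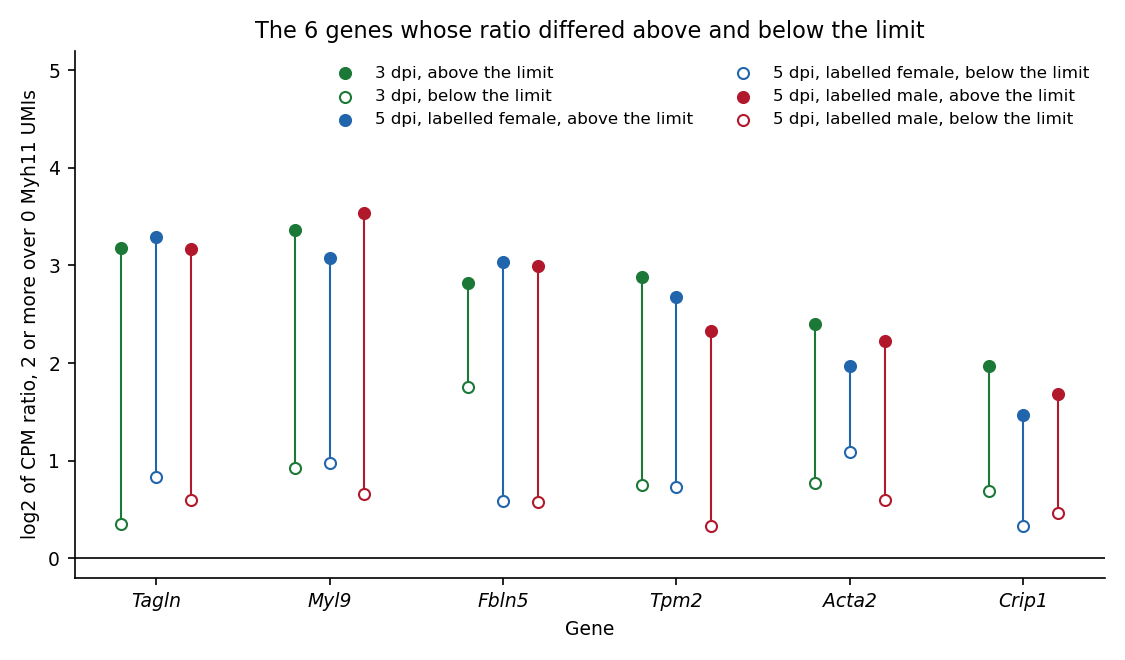
Log2 of the CPM ratio of spots with 2 or more over spots with 0 *Myh11* UMIs (vertical axis) for the 6 genes that passed, in the 3 infarcted sections, above (filled) and below (open) the cardiomyocyte limit. In each gene and section the filled point lies above the open one.

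Markers of nerve, fat, epicardium and mast cells were sparse in the Myh11-rich spots. Of the markers of nerve and Schwann cells 4 of 10 had any UMI, 5 UMIs in all, and adipocyte and epicardial lists had 1 UMI each, so no gene of these 3 lists was tested. Mast cell genes had 2 UMIs. None of 8 macrophage and none of 5 tested resident macrophage genes passed, with medians of 0.10 and 0.08. The atrial genes *Myl7* and *Myl4* had 0 and 1 UMI. *Nppa*, a natriuretic peptide of atria and of stressed ventricles, had 2276, 7816, 3775 and 13791 CPM in Myh11-rich against 360, 9524, 14183 and 9426 CPM in Myh11-free spots, higher in 2 sections and lower in 2, and did not pass (0.21 ± 0.12, adjusted p = 0.915). It passed as higher without the 5-dpi section labelled female (0.79, adjusted p = 3.23e-10), without spots near the border (0.57, adjusted p = 0.000128) and with the cardiomyocyte limit at 0.4 (0.63, adjusted p = 0.0206). None of 9 border cardiomyocyte genes passed, with a median of 0.05. *Ankrd1* (0.29) and *Myh7* (0.47) passed as higher with 1 or more *Myh11* UMIs, and *Acta1* (0.70) without the 5-dpi section labelled female. Red cell genes stood at 3284, 7782, 41809 and 13546 CPM in Myh11-rich and 8680, 5306, 24216 and 14755 CPM in Myh11-free spots, and none of the 5 passed. The alternatives that called them went both ways: with 1 or more *Myh11* UMIs *Hba-a1* (-0.42), *Hba-a2* (-0.34) and *Hbb-bs* (-0.33) passed as lower, while *Hba-a2* passed as higher with 3 or more (0.88) and without the control (0.66).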

How the data were processed

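The deposited UMI counts per gene and spot were made by the authors with Space Ranger 1.3.1 (per the labels) and are raw counts of 21885 genes. Spots marked as tissue with at least 500 UMIs were kept. The 13 mitochondrial genes were left out of CPM. Counts were summed per class and section and fitted with edgeR 4.0.16 (R 4.3.3, quasi-likelihood, section as a block, Benjamini-Hochberg threshold 0.05); the comparison with the infarct fitted an interaction in the 3 infarcted sections. TMM factors came from genes expected at 20 or more UMIs in the smallest sum (220 for Myh11-rich against Myh11-free spots, 579 for neighbouring spots, 206 for the interaction). This replaced TMM over all filtered genes after that scaling failed on simulated data, a choice made after seeing the data. DESeq2 1.42.0 was an alternative. Intervals are exact (SciPy 1.17.1) and figures were drawn with matplotlib 3.10.9.

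The members, the 23 gene lists and the tests were chosen with earlier results of these data known. Genes were named by rule (the markers, the most abundant genes of each list, and the highest and lowest fold changes past the threshold in the same direction in every section). The other genes past the threshold, and list genes named for not passing, were chosen after their values were seen. Sections pair the classes because both come from 1 heart. *Nrg1*, whose symbol occurs more than once, was left out. The genome build was not settled by the sources used here, and the promoter is from RefSeq.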

Additional observations from a re-analysis of the deposited data

Results flagged for a closer look

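The ratio of spots with 2 or more to spots with 0 *Myh11* UMIs differed between tissue above and below the cardiomyocyte limit, by the interaction in edgeR, for *Tagln* (2.42 on the log2 scale), *Myl9* (2.34), *Fbln5* (2.12), *Tpm2* (1.93), *Acta2* (1.24) and *Crip1* (1.08). In 4 further named genes the control section lay on one side of 0 and the 3 infarcted sections on the other, and this difference between control and infarct was not tested. The control's log2 ratio of Myh11-rich to Myh11-free spots was -0.24 for *Ly6a*, 1.73 for *Postn*, 1.16 for *Clu* and -1.47 for *Hbb-bt*, with the opposite sign in each infarcted section. The same pattern was seen in 66 of the 641 tested genes with more than 3 UMIs in the Myh11-rich spots of every section (10.3%). The control values of *Postn* and *Hbb-bt* rest on 4 and 6 UMIs, and *Hbb-bt* in the 5-dpi section labelled male was at 770 against 767 CPM.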

How the results depend on the processing

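Against 38 calls in all between Myh11-rich and Myh11-free spots, DESeq2 made 23 (22 higher, 1 lower) and TMM over all filtered genes 292 (25 higher, 267 lower); there were 13 without the replicate block, 10 with Myh11-free spots matched on UMIs, 19 after thinning and 15 without the largest patches; leaving out 1 section gave 20 to 36. Between 30 and 49 calls were made under the other alternatives. The 12 contractile genes became 4 with matched spots, 7 after thinning and 7 without the largest patches, and 7 to 10 when 1 section was left out. The 0 calls next to the spots became 1 without the filter on low counts, 8 around spots with 3 or more *Myh11* UMIs, 2 around those with 1 or more, and 2 with the cardiomyocyte limit at 0.4 as at 0.6; leaving out 1 section gave 0 to 3, and there were 0 without the replicate block. The 6 calls outside against inside became 375 with TMM over all filtered genes, 0 without the replicate block and 12 with the limit at 0.6, and 4 to 8 when 1 section was left out. *EGFP* reversed to -0.012 with TMM over all filtered genes (adjusted p = 0.991), where the median of all genes moved by -0.56 too. With 1 or more *Myh11* UMIs the shares were 4.03%, 3.20%, 7.33% and 4.39%; with 3 or more the control was 0.0858%; thinning gave 0.132% (3 dpi) and 0.226% (5 dpi, labelled female). The cause of these changes was not tested. Depth limits all of this: 1 UMI in the smallest sum was 40.6 CPM.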

Other observations

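In the 5-dpi section labelled male 560 spots held 500 or more UMIs but were not marked as tissue. They had 11.3 *Myh11* CPM, against 17.6 CPM over the control section, none held 2 or more *Myh11* UMIs, and their contractile genes stood at 3620 CPM, against 1034 CPM over the control section. In Myh11-free spots of their own section these genes stood at 4093 CPM below the cardiomyocyte limit and 1218 CPM above it. They were not used in any comparison.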
